A study of Mus musculus with 12 samples.

Results

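The transcripts described here are those of 10 genes for creatine and N-acetylaspartate metabolism in purified mouse brain myelin, taken by their gene symbols from a table of 21937 genes. All 10 were found in the table, and all 10 passed the filter on low values that was used for testing. Myelin was purified as a light membrane fraction from the brains of wild-type male c57Bl6/N mice at 4 ages, 18 and 75 days after birth (P18 and P75) and 6 and 24 months, and its RNA was sequenced in 3 libraries per age. The labels name no transgene and no treatment, and age is the factor they give as differing between the groups. At 6 months the study names 3 individual brains as the source; for the other ages the labels give replicate numbers only, so the p-values measure the spread between these libraries, part of which may be technical.

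N-acetylaspartate (NAA) is an amino acid derivative held at high concentration in the brain. Neurons make it from aspartate and acetyl-CoA with the enzyme encoded by Nat8l, and oligodendrocytes split it with aspartoacylase, encoded by Aspa, which releases acetate that can enter lipid synthesis. Loss of ASPA in humans causes Canavan disease, a leukodystrophy. Rimkla encodes a synthetase that joins NAA and glutamate to the dipeptide NAAG, Folh1 encodes glutamate carboxypeptidase II, which cleaves NAAG outside the cell, and Slc13a3 encodes a sodium-coupled dicarboxylate carrier that can take up NAA. Creatine is made in a pair of steps: Gatm encodes the enzyme that forms guanidinoacetate, and Gamt the methyltransferase that turns it into creatine. Slc6a8 encodes the creatine transporter. Ckb and Ckmt1 encode the cytosolic brain-type and the ubiquitous mitochondrial creatine kinase, which move phosphate between ATP and creatine.

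The libraries held 20299052 to 27214385 reads on genes. The values are normalized read counts, that is, reads per gene divided by a size factor of the library, and the 10 genes were each covered by at least 101 reads in every library. Defining markers of myelinating oligodendrocytes were present in every library, and so were those of neurons and astrocytes: none of the 10, 15 and 9 markers was at 0 in any library. P18 replicate 3 stood apart from the other libraries of its age. Without Mbp, its oligodendrocyte markers summed to a normalized read count of 353374, against 553943 and 631329 in replicates 1 and 2, and its neuronal markers to 263855, against 225758 and 217077. Among the 10 genes, 7 were lower in this library than in the other P18 libraries, at 46.6% (Gatm) to 78.2% (Slc6a8) of their mean. Ckb and Ckmt1 were higher there, at 128% and 126%. For the 10 genes, every call that changed when this library was left out is given both ways. Over the ages, the sum of oligodendrocyte markers without Mbp was 353374 to 631329 at P18 and 195467 to 256969 at P75. It was 242895 to 332803 at 6 months and 247084 to 274109 at 24 months. The neuronal sum lay between 217077 and 276531 and the astrocyte sum between 99145 and 120221 in all libraries. The sum of 10 microglial markers was 5253 to 5684 at P18 and 11527 to 14485 at 24 months. A few abundant genes carry such sums and can move against the rest of a list: from P75 to 6 months Snap25 went from a mean of 141430 to 88328, while 11 of 15 neuronal markers were called higher. Of the astrocyte markers, 7 of 9 were called from P18 to 24 months, 5 higher and 2 lower, where 69% of all genes were called. The part of these shifts in the changes of single genes was not tested. In bulk RNA of this kind, less material of a cell type and less RNA per cell cannot be told apart.

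Nat8l, the NAA synthetase gene, lies on chromosome 5 of NCBIM37 (mm9) from 34338633 to 34348565. Its normalized read count was 3093, 3367 and 3163 in the 3 libraries at P18, and 3491, 4056 and 3446 at P75. At 6 months it was 5668, 5542 and 5270, and at 24 months 4312, 4855 and 5058. The libraries of 6 months all lay above those of the other ages, and the libraries of P18 all lay below those of the other ages. The transcript rose from P75 to 6 months by 0.59 on the log2 scale (standard error 0.089; limma, adjusted p = 5.22e-05) and was 1.48 times as high at 24 months as at P18. Between P18 and P75 the log2 difference was 0.19 with an adjusted p of 0.103 (limma), just outside the threshold of 0.1, and it passed without P75 replicate 3 (adjusted p = 0.0819) or 24-month replicate 1 (adjusted p = 0.0937). It also passed with the same total per library (0.31, adjusted p = 0.0344), quantile normalization (adjusted p = 0.0573), DESeq2 (adjusted p = 0.0777) and a minimum mean of 100 (adjusted p = 0.0939). Without P75 replicate 2, the highest P75 library, the difference was 0.114 (limma, adjusted p = 0.365). With only the libraries of these ages the adjusted p was 0.163 (limma). The fall from 6 to 24 months, a log2 change of -0.21 (limma, adjusted p = 0.0984), lay just inside the threshold. It was lost without P18 replicate 1 or 2, P75 replicate 1, any 6-month library, or 24-month replicate 1 or 2. Without 24-month replicate 1 the log2 change was -0.15 (adjusted p = 0.33). Over the step from P75 to 6 months, 14 of 15 neuronal markers changed, 11 up and 3 down, with a median log2 change of 0.426; of all genes 60.6% were called in that step, 31.2% higher and 29.4% lower. Their part in the change of Nat8l was not tested.

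Aspa, the NAA-splitting enzyme gene on chromosome 11 from 73118494 to 73140309, was the single gene of the 10 that did not pass between P18 and 24 months with all libraries. It read 1235, 1143.5 and 799 at P18, and 1021, 1046 and 1342 at P75. It read 1095, 1110 and 1012 at 6 months, and 1027, 953 and 705 at 24 months. The libraries of every consecutive pair of ages overlapped, and in none of the 3 consecutive comparisons did the change pass the test. That from 6 to 24 months lay just inside the threshold without P18 replicate 3, and also with only the libraries of these ages (limma, adjusted p = 0.0936). The single call was from P75 to 24 months, where Aspa fell by 0.35 on the log2 scale (standard error 0.16; limma, adjusted p = 0.0798), although the highest library of 24 months reached above the lowest of P75. It was lost without P75 replicate 3 (log2 change -0.23, adjusted p = 0.301), without 24-month replicate 3 (-0.19, adjusted p = 0.364) and without the filter on low values (adjusted p = 0.104). Between P18 and 24 months the log2 difference was -0.24 (adjusted p = 0.206), and without P18 replicate 3 it was -0.43 and passed (limma, adjusted p = 0.0117). From P18 to P75 the log2 difference of Aspa was 0.12 (standard error 0.16; limma, adjusted p = 0.591), and without P18 replicate 3 it was -0.0756.

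The ratio of Aspa to Nat8l compares the genes for NAA breakdown and synthesis within a library, where the scaling cancels. It was 0.399, 0.340 and 0.252 at P18, and 0.292, 0.258 and 0.389 at P75. At 6 months it was 0.193, 0.200 and 0.192, and at 24 months 0.238, 0.196 and 0.139. All libraries of the later pair of ages lay below all libraries of the earlier pair, while within each pair the libraries overlapped.

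**Figure D1:**
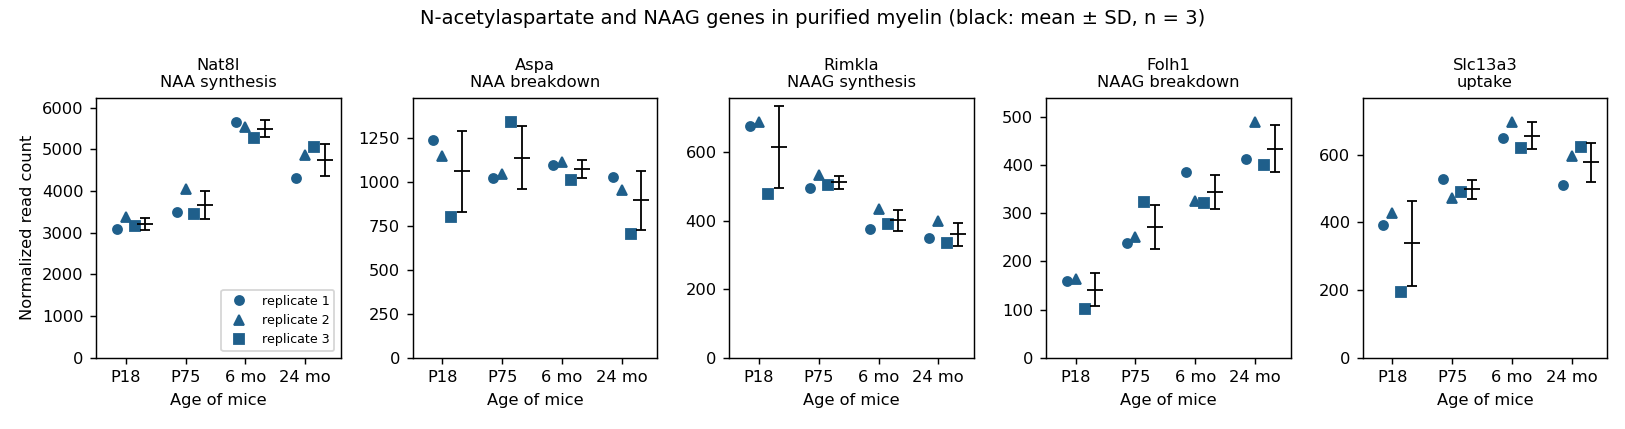
Normalized read count of the 5 NAA and NAAG genes (vertical axes, linear from 0, a scale per gene) in each library at each age (horizontal axes). Points are libraries, with a shape per replicate number, and black marks give the mean ± SD of 3 libraries; Nat8l was highest at 6 months, Rimkla had its lowest mean and Folh1 its highest mean at 24 months, and the P18 replicate 3 square lay lowest of its age for Aspa, Rimkla, Folh1 and Slc13a3.

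The genes for making and cleaving NAAG moved in opposite directions between P18 and 24 months. Rimkla, on chromosome 4 from 119137888 to 119165233, shares 365 exonic bases with Zmynd12 on the other strand, and its count is uncertain to that extent. It had 679, 690 and 478 at P18, and 497, 535 and 505 at P75. It then had 377, 436 and 391 at 6 months, and 349, 399 and 336 at 24 months. The libraries of P75 all lay above those of both later ages, and P18 replicate 3 lay below the P75 libraries while the other P18 libraries lay above them. The transcript fell by 0.35 on the log2 scale from P75 to 6 months (standard error 0.13; limma, adjusted p = 0.0267). It fell by 0.75 from P18 to 24 months (limma, adjusted p = 7.35e-05). From P18 to P75 the log2 difference of -0.25 did not pass (adjusted p = 0.132), whereas without P18 replicate 3 it was -0.42 and passed (limma, adjusted p = 0.00331). It also passed with edgeR (adjusted p = 0.0877) and with the replicate block (limma, adjusted p = 0.0941).

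Folh1, the NAAG-cleaving carboxypeptidase gene on chromosome 7 from 93867862 to 93924374, showed the largest rise of the 10 genes. It had 159, 163 and 101 at P18, and 239, 250 and 323 at P75. It had 384, 326 and 320 at 6 months, and 412, 490 and 400 at 24 months. The ranges of P18, P75 and 24 months did not overlap, and that of 6 months overlapped with P75 only. The mean rose 3.07-fold from P18 to 24 months, a log2 change of 1.64 (standard error 0.17; limma, adjusted p = 3.39e-07), which was 1.42 without P18 replicate 3. The rise from P18 to P75 was 0.95 (limma, adjusted p = 0.000306). The rise from P75 to 6 months, 0.35, was near the threshold (limma, adjusted p = 0.0875) and was lost without P75 replicate 1, P75 replicate 2, 6-month replicate 1 or 6-month replicate 2, with log2 changes of 0.27, 0.30, 0.27 and 0.39, and also without the filter (adjusted p = 0.117) and with quantile normalization (adjusted p = 0.139). From 6 to 24 months the log2 difference was 0.34 (limma, adjusted p = 0.164). It passed with only the libraries of these ages (limma, adjusted p = 0.0361) and without P18 replicate 3 (adjusted p = 0.0508).

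Within a library, the ratio of Folh1 to Rimkla was 0.235, 0.236 and 0.212 at P18, and 0.480, 0.468 and 0.639 at P75. It was 1.02, 0.747 and 0.818 at 6 months, and 1.18, 1.23 and 1.19 at 24 months. The 4 ages did not overlap in this ratio. P18 replicate 3, in which both genes were low, lay near the other P18 libraries in the ratio.

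Slc13a3, the dicarboxylate carrier gene on chromosome 2 from 165230528 to 165298730, had 392, 427 and 195 at P18, and 529, 472 and 491 at P75. It had 650, 698 and 619 at 6 months, and 511, 597 and 623 at 24 months. All P18 libraries lay below all later ones. It rose from P18 to P75 by 0.63 on the log2 scale (standard error 0.20; limma, adjusted p = 0.0187), a change that was 0.28 without P18 replicate 3 (adjusted p = 0.0388), and by 0.85 from P18 to 24 months (0.49 without that library). From P75 to 6 months all libraries of the later age were higher, with a log2 difference of 0.40 that did not pass (adjusted p = 0.106). It passed with the replicate block (limma, adjusted p = 0.0972), with only the libraries of these ages (adjusted p = 0.00206), with the same total per library (adjusted p = 0.0665), with edgeR (adjusted p = 0.0716) and with DESeq2 (adjusted p = 0.0713). It also passed without P18 replicate 1, 2 or 3 (adjusted p = 0.0884, 0.0705 and 0.00146), which leaves both group means as they are. From P75 to 24 months the log2 difference was 0.21 (limma, adjusted p = 0.407). It passed without P18 replicate 3 (limma, adjusted p = 0.0671) and with only the libraries of these ages (adjusted p = 0.0959).

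Of the creatine genes, the pair of synthesis enzymes moved in opposite directions from P18 to P75. Gamt, the methyltransferase gene on chromosome 10 from 79720896 to 79723757, had the largest change of all 10 genes. It had 1345, 1724 and 940 at P18, and 388, 507 and 471 at P75. At 6 months it had 198, 256 and 232, and at 24 months 228, 212 and 219. The ranges of P18, P75 and the later pair of ages were separate from each other, and the libraries of 6 and 24 months overlapped. The transcript fell by 1.52 on the log2 scale from P18 to P75 (standard error 0.17; limma, adjusted p = 6.12e-06). It fell by 0.99 from P75 to 6 months (limma, adjusted p = 0.000146), and the mean at 24 months was 6.08-fold lower than at P18. From 6 to 24 months the log2 difference was -0.05 (standard error 0.17, adjusted p = 0.872). Over the first step 9 of 10 oligodendrocyte markers fell, with a median log2 change of -1.21, where 22.9% of all genes were called lower. Over the second step 3 of the 10 rose and 7 did not pass, where 31.2% of all genes were called higher. Their part in the falls of Gamt was not tested.

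Gatm, the gene of the first synthesis enzyme on chromosome 2 from 122420203 to 122437039, had 5575, 5187 and 2506 at P18, and 8247, 6757 and 7261 at P75. It had 7790, 10304 and 7398 at 6 months, and 7123, 7664 and 7234 at 24 months. All P18 libraries were below all later libraries, and the later ages overlapped with each other. Gatm rose from P18 to P75 by 0.83 on the log2 scale (standard error 0.22; limma, adjusted p = 0.00586), a change that was 0.46 without P18 replicate 3 (adjusted p = 0.00599). From P18 to 24 months it rose by 0.82 (limma, adjusted p = 0.0035), or by 0.45 without that library. After P75 the log2 differences were 0.18 to 6 months and -0.20 from there to 24 months, with standard errors of 0.22, and neither passed (limma, adjusted p = 0.489 and 0.553). Without P18 replicate 3, which is in neither comparison but enters the shared spread, the adjusted p was 0.16 and 0.195 (limma).

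The ratio of Gatm to Gamt was 4.14, 3.01 and 2.67 at P18, and 21.3, 13.3 and 15.4 at P75. It was 39.3, 40.3 and 31.9 at 6 months, and 31.3, 36.2 and 33.0 at 24 months. P18, P75 and the later pair of ages thus held separate ranges, and 6 and 24 months overlapped. P18 replicate 3, low in both genes, had the lowest ratio of all.

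**Figure D2:**
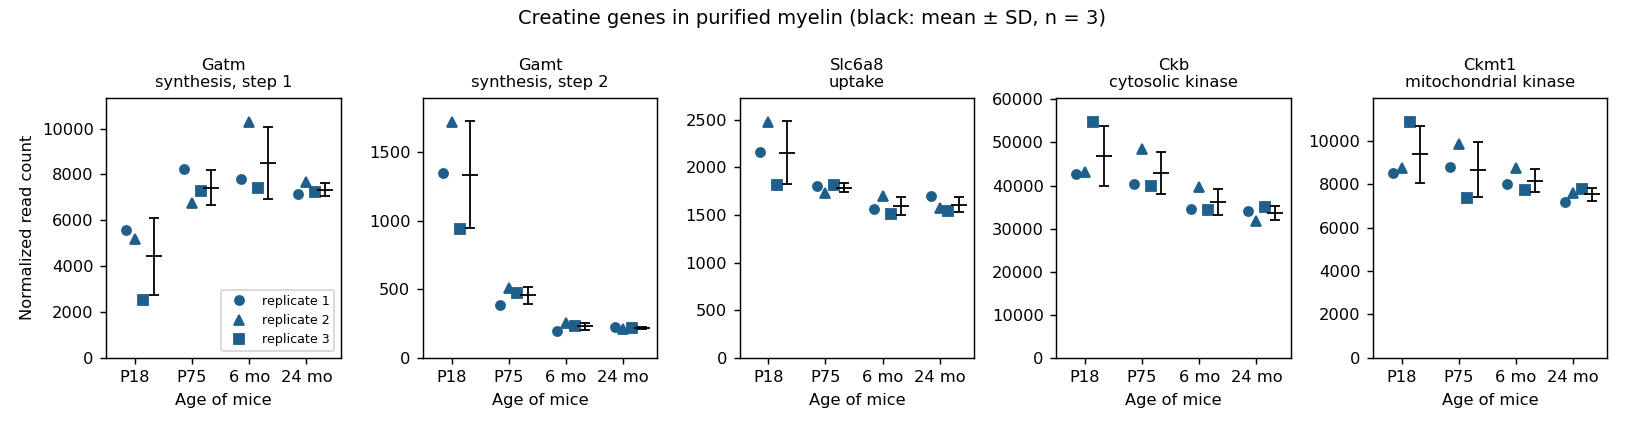
Normalized read count of the 5 creatine genes (vertical axes, linear from 0, a scale per gene) in each library at each age (horizontal axes). Points are libraries, with a shape per replicate number, and black marks give the mean ± SD of 3 libraries; Gamt fell from a mean of 1337 at P18 to 228 at 6 months, Gatm was lowest at P18, and Ckb and Ckmt1 were highest in P18 replicate 3.

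The stretches before the annotated starts of Gatm, Gamt and Folh1 are shown because these are the synthesis enzymes that moved apart and the gene with the largest rise. They are RefSeq sequences on GRCm38.p6, each the 250 bases upstream of a start, written 5′ to 3′ on the strand of the gene, and capitals mark matches on either strand to 4 motifs, the GC box (GGGCGG), the CCAAT box with those letters, the TATA box (TATAAA) and the SOX core (ACAAAG). Gatm is shown from chr2:122611278-122611527, Gamt from chr10:80261013-80261262 and Folh1 from chr7:86775865-86776114, all on the minus strand.
Gatm: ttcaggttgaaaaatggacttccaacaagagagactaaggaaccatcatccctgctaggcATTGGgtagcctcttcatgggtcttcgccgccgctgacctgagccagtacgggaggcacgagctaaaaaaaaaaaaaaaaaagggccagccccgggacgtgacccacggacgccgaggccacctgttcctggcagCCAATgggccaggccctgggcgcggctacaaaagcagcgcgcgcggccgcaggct
Gamt: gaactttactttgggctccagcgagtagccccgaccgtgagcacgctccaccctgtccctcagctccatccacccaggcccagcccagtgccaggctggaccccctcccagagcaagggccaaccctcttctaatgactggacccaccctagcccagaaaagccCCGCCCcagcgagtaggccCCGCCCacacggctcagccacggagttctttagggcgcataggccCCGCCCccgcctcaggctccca
Folh1: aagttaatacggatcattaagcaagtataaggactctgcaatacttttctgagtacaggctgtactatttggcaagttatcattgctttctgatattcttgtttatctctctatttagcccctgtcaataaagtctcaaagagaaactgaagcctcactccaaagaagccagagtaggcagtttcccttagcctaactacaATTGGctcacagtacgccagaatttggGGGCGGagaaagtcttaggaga
The window of Gamt held 3 matches to GGGCGG, 0 to CCAAT and 12 CpG dinucleotides. That of Gatm held 0 matches to GGGCGG, 2 to CCAAT and 17 CpG, and that of Folh1 held 1 match to each of these motifs and 3 CpG. No match to TATAAA or ACAAAG was found in the 3 windows. Of 32851 RefSeq promoter windows of this length, 32.7% held GGGCGG, 33.8% CCAAT, 12.4% TATAAA and 16.5% ACAAAG, with a median of 6 CpG. The matches describe these letters only. Of the 10 genes, 8 had an entry in the promoter table, and Nat8l and Slc6a8 had none.

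Slc6a8, the creatine transporter gene on chromosome X from 70918489 to 70927841, read 2161.5, 2480 and 1815 at P18, and 1805, 1730 and 1816 at P75. It read 1566, 1695 and 1512 at 6 months, and 1696, 1576 and 1544 at 24 months. All libraries of the later pair of ages lay below all earlier ones. Slc6a8 fell by 0.41 on the log2 scale from P18 to 24 months (standard error 0.099; limma, adjusted p = 0.00172). It fell by 0.26 from P18 to P75 (limma, adjusted p = 0.0458), a call that depended on several choices. It was lost when the libraries were scaled to the same total (log2 change -0.13, adjusted p = 0.3), when only the 6 libraries of these ages were fitted (adjusted p = 0.103), and without P18 replicate 1 (-0.25, adjusted p = 0.101), P18 replicate 2 (-0.15, adjusted p = 0.243) or P75 replicate 2 (-0.24, adjusted p = 0.118). From P75 to 6 months the log2 difference was -0.17 (limma, adjusted p = 0.169). It passed without P18 replicate 3 (limma, adjusted p = 0.0759) and with quantile normalization (adjusted p = 0.0873).

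Ckb, the cytosolic creatine kinase gene on chromosome 12 from 112907566 to 112910549, was the most abundant of the 10. It had 42638, 43120 and 54862 at P18, and 40445, 48414 and 39801 at P75. It had 34492, 39570 and 34278 at 6 months, and 34157, 31743 and 34937 at 24 months. The libraries of 24 months all lay below those of P18 and P75. The transcript fell by 0.47 on the log2 scale from P18 to 24 months (standard error 0.14; limma, adjusted p = 0.00797). Without P18 replicate 3, the highest library, this change was -0.352 (limma, adjusted p = 0.0289). Ckb fell by 0.35 from P75 to 24 months (limma, adjusted p = 0.0534). The latter was lost without the filter (adjusted p = 0.104), without P75 replicate 2 (-0.26, adjusted p = 0.203) and without 24-month replicate 2 (-0.31, adjusted p = 0.163). All 6-month libraries also lay below all P75 libraries, but no single consecutive step passed, with log2 differences of -0.12, -0.25 and -0.10 (limma, adjusted p = 0.508, 0.153 and 0.649). The step from P75 to 6 months passed with DESeq2 (adjusted p = 0.0539) and without P18 replicate 3 (limma, adjusted p = 0.0876).

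Ckmt1, the mitochondrial creatine kinase gene on chromosome 2 from 121183450 to 121189473, shares 10 exonic bases with Strc on the other strand. It had 8510.5, 8737.5 and 10886 at P18, and 8793.5, 9865 and 7369 at P75. It had 8012, 8737 and 7749 at 6 months, and 7190, 7611 and 7777 at 24 months. The ranges overlapped in each consecutive pair of ages, and no such step passed. It fell by 0.31 on the log2 scale from P18 to 24 months (standard error 0.12; limma, adjusted p = 0.0295), a call that was lost without P18 replicate 3 (-0.20, adjusted p = 0.125), with the same total per library (-0.23, adjusted p = 0.162) and with quantile normalization (-0.22, adjusted p = 0.105). From P75 to 24 months the log2 difference was -0.20 (adjusted p = 0.18), and it passed without P75 replicate 3 (-0.31; limma, adjusted p = 0.0474).

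The proportion of the kinase genes to each other moved little next to those of the other pairs. The ratio of Ckb to Ckmt1 was 5.01, 4.94 and 5.04 at P18, and 4.60, 4.91 and 5.40 at P75. It was 4.31, 4.53 and 4.42 at 6 months, and 4.75, 4.17 and 4.49 at 24 months. The libraries of 6 months lay below all those of the earlier ages, and those of 24 months overlapped with both P75 and 6 months. P18 replicate 3, where both genes were high, had nearly the same ratio as the other P18 libraries.

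**Figure D3:**
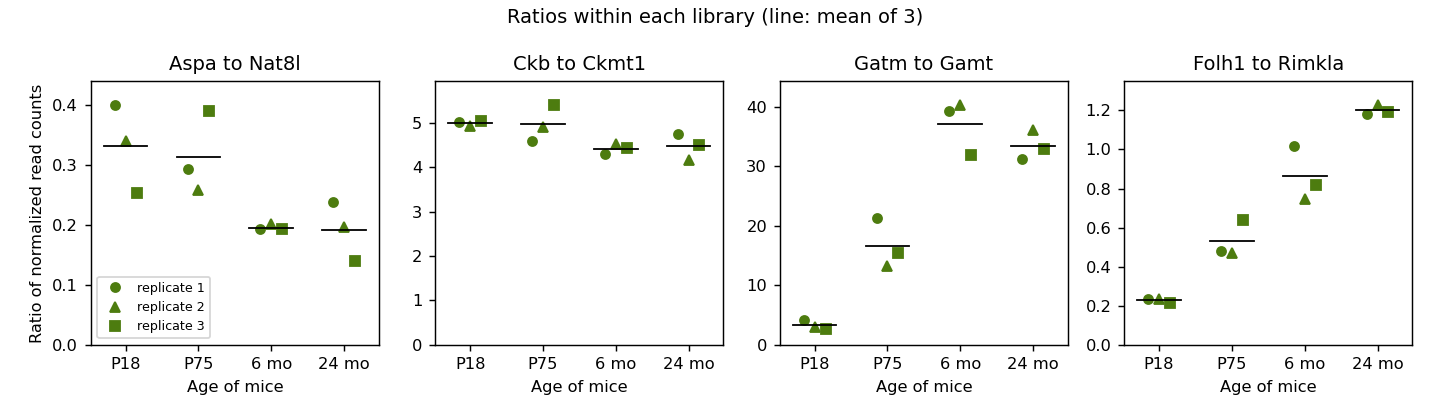
Ratios of normalized read counts of gene pairs within each library (vertical axes, linear from 0) by age (horizontal axes), with points for libraries and a line at the mean of 3. The ratio of Gatm to Gamt went from a mean of 3.27 at P18 to 37.2 at 6 months and that of Folh1 to Rimkla from 0.228 at P18 to 1.20 at 24 months, while that of Ckb to Ckmt1 kept means between 4.42 and 4.99.

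Between P18 and P75, 5 of the 10 genes were called changed at an adjusted p under 0.1 over all 14634 genes tested (limma with Benjamini-Hochberg adjustment), against 48.8% of all genes. Folh1, Slc13a3 and Gatm rose, where 25.9% of all genes were called higher, and Gamt and Slc6a8 fell, where 22.9% were called lower. The libraries did not overlap for 5 of the 10, against 47.7% of all genes. From P75 to 6 months 4 were called, against 60.6% of all genes: Nat8l and Folh1 rose (31.2% of all genes were called higher), and Rimkla and Gamt fell (29.4% were called lower). For 6 of the 10 the libraries did not overlap, against 63.1% of all genes. Leaving out P18 replicate 3, which is in neither of these groups, raised the number of calls to 7, with the means of both groups unchanged and the shared estimate of the spread refitted. From 6 to 24 months 1 was called, Nat8l, which fell, against 29.3% of all genes, 16.6% higher and 12.7% lower. The libraries of Nat8l and Folh1 did not overlap, 2 of 10, against 43.5% of all genes. Of the 5 creatine genes, limma called 0 over this last step, with 0 at an unadjusted p under 0.05 and 0 by edgeR and by DESeq2. In these consecutive steps the share of the 10 genes called was close to or below that of all genes, and their median log2 changes were 0.001, -0.076 and -0.135, against 0.015, 0.005 and 0.028 over all genes.

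The span from P18 to 24 months gave 9 calls against 69% of all genes. Nat8l, Folh1, Slc13a3 and Gatm rose (34.7% of all genes were called higher), Rimkla, Gamt, Slc6a8, Ckb and Ckmt1 fell (34.3% were called lower), and Aspa did not pass. The same 9 genes had no overlap between these ages, against 66.6% of all genes. Over 2-fold, Folh1 was the member that rose, where 14.5% of all genes were called higher over 2-fold, and Gamt the member that fell, where 3.98% were called lower over 2-fold. From P75 to 24 months 6 were called against 54.9% of all genes: Nat8l and Folh1 rose (28.8% of all genes were called higher), and Aspa, Rimkla, Gamt and Ckb fell (26.1% were called lower). Here too 6 of the 10 did not overlap, against 57.5% of all genes. The 6-month libraries do not enter the log2 changes from P75 to 24 months, but they enter the shared estimate of the spread. These comparisons share libraries with the consecutive ones and with each other. With the same total per library, the median change of all genes from P18 to P75 moved from 0.015 to 0.139 and the share of higher calls among all calls from 53.0% to 72.2%. Of the 10 genes, 4 were then called higher (Nat8l was added) and 1 lower (Slc6a8 was lost). From 6 to 24 months that scaling moved the share of higher calls from 56.8% to 46.3%, and the call of Nat8l was lost. Quantile normalization moved the median from P18 to 24 months from -0.010 to -0.116.

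**Figure D4:**
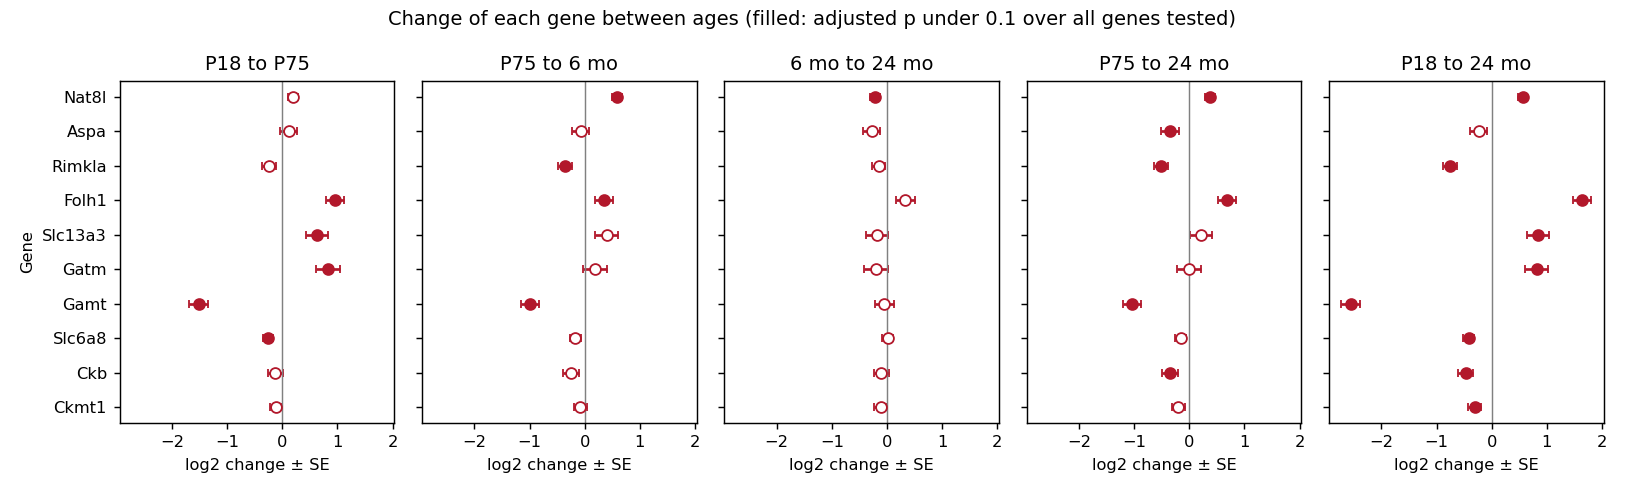
Log2 change of each of the 10 genes (horizontal axes, second age minus first, with standard errors as bars) in 5 comparisons of ages, 1 panel each. Filled points passed at an adjusted p under 0.1 over all genes tested; Gamt lies farthest to the left from P18 to 24 months, at -2.56, and Folh1 farthest to the right, at 1.64.

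Levels of different genes were compared after division by the length of the merged exons. Per kilobase, Ckb was highest at every age, with 31714 ± 4684 at P18 and 22742 ± 1127 at 24 months (SD, n = 3), followed by Ckmt1, with 3757 ± 525 and 3015 ± 121. Ckb thus lay above at least 99.8% of the detected genes of known length at each age, and Ckmt1 above at least 97.6%. Gatm came next at each age, and its 1474 ± 557 per kb at P18 and 2832 ± 526 at 6 months overlapped at the latter age with the range of Ckmt1. Nat8l had 491 ± 21.8 per kb at P18 and 841 ± 31.2 at 6 months. Slc6a8 had 413 ± 63.8 and 305 ± 18.1, with its highest P18 library within the range of Nat8l. Gamt and Folh1 changed places most. Gamt, with 926 ± 272 per kb, had rank 4 at P18, above 91.5% of genes, and with 152 ± 5.52 rank 8 at 24 months, above 63.8%. Folh1 went the other way, from rank 10 to rank 6. At 24 months Folh1, Aspa and Gamt, with 162 ± 18.3, 159 ± 30.0 and 152 ± 5.52 per kb, did not differ beyond their spread. Slc13a3 and Rimkla stood lowest at that age, with 111 ± 11.2 and 86.9 ± 8.01. The order among the low genes depended on the length used: with the longest transcript in place of the merged exons, the rank of Gamt was 6 and that of Folh1 was 9 at 24 months.

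**Figure D5:**
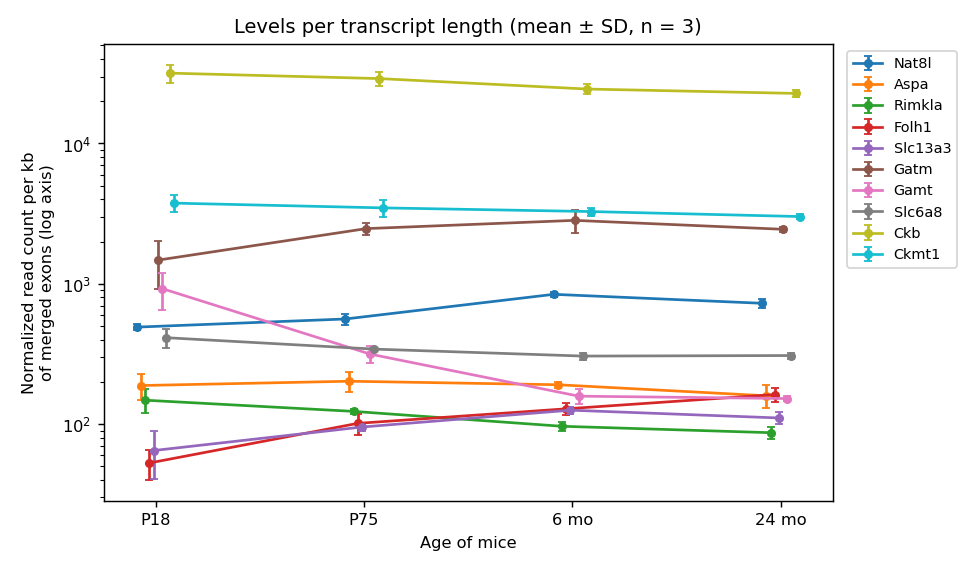
Normalized read count per kb of merged exons (vertical axis, log scale) of the 10 genes at each age (horizontal axis), as the mean ± SD of 3 libraries, with lines joining the means of a gene. Ckb, Ckmt1 and Gatm kept the top places, Gamt moved from 926 at P18 to 152 at 24 months, and Folh1 from 52.8 to 162.

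Of 15 further genes of NAA and acetyl-CoA supply fixed as a list, 12 passed the filter. Slc13a2 and Naaladl1 had at most 1.0 and 7.9 normalized read counts, and Naaladl2 was not analysed here. From P18 to P75 6 of 12 were called (2 higher, 4 lower), against 48.8% of all genes, and from P75 to 6 months 9 (7 higher, 2 lower), against 60.6%. Between 6 and 24 months 6 were called (1 higher, 5 lower), against 29.3%, from P75 to 24 months 5 (4 higher, 1 lower), against 54.9%, and from P18 to 24 months 9 (4 higher, 5 lower), against 69%. Their median log2 changes were -0.122, 0.250, -0.069, 0.173 and -0.078, against 0.015, 0.005, 0.028, -0.004 and -0.010 over all genes. Grm3, which encodes the metabotropic glutamate receptor at which NAAG acts, had 368, 345 and 214 at P18 and 893, 1090 and 1278 at 24 months, without overlap. It rose by 1.84 over that span (standard error 0.16; limma, adjusted p = 6.96e-08), and already by 1.48 from P18 to P75. Rimklb, the paralog of Rimkla that also makes NAAG, fell by 1.12 over the same span (limma, adjusted p = 3.25e-08), from 1208.5, 1181 and 1195 to 596, 586 and 475. Rimkla and Rimklb thus both fell, while Folh1 and Grm3 rose. Naalad2, another NAAG-cleaving peptidase gene, was low, with 10.7, 15.8 and 16.1 at P18 and 38.6, 46.5 and 59.2 at 24 months, and rose by 1.69 (limma, adjusted p = 0.0019).

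Got2, the mitochondrial aspartate aminotransferase gene that supplies aspartate, had no steady course. It had 2574, 2825 and 2734 at P18, 1527, 1598 and 1414 at P75, 4081, 3883 and 3513 at 6 months, and 2042, 2079 and 2322 at 24 months. The 4 ages did not overlap. The log2 changes of the consecutive steps were -0.84, 1.34 and -0.83 (limma, adjusted p = 3.02e-06, 2.81e-08 and 4.69e-05). Acly, which encodes ATP citrate lyase, a source of cytosolic acetyl-CoA, rose by 0.48 from P75 to 6 months and fell by 0.27 over the next step (limma, adjusted p = 0.000151 and 0.0337). The latter was lost without 6-month replicate 1 (-0.22, adjusted p = 0.128) or 24-month replicate 1 (-0.25, adjusted p = 0.102).

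Of 11 further genes of creatine use and methyl supply, 9 passed the filter. The muscle-type kinases Ckm and Ckmt2 had at most 9.9 and 5.6 normalized read counts in any library. Called were 6 of 9 from P18 to P75 (2 higher, 4 lower), against 48.8% of all genes, and 6 from P75 to 6 months (2 higher, 4 lower), against 60.6%. Between 6 and 24 months 3 were called (1 higher, 2 lower), against 29.3%, 7 from P75 to 24 months (2 higher, 5 lower), against 54.9%, and 8 from P18 to 24 months (2 higher, 6 lower), against 69%. The median log2 changes were -0.127, -0.138, -0.031, -0.231 and -0.381, with the medians over all genes as above. Slc25a4 and Slc25a5, which encode ATP/ADP carriers of the inner mitochondrial membrane that work beside the mitochondrial kinase, had log2 changes of -0.58 and -0.44 from P18 to 24 months (limma, adjusted p = 0.000213 and 0.000635), and the count of Slc25a5 is uncertain where reads are shared with its processed pseudogenes. Vdac1, Vdac2 and Vdac3, which encode pores of the outer membrane, had -0.44, -0.25 and -0.40 over that span (limma, adjusted p = 0.000263, 0.0206 and 0.000935), and the call of Vdac2 was lost with the same total per library (-0.17, adjusted p = 0.234). Slc16a12, a creatine carrier, was low but rose from 26.1, 30.5 and 24.1 at P18 to 121, 103 and 98 at 24 months, a log2 change of 1.96 (limma, adjusted p = 1.8e-07). Mat2a, which encodes the synthetase of the methyl donor that Gamt uses, rose by 0.30 over that span (limma, adjusted p = 0.00573). Its course was not steady, with a log2 change of -0.228 from P18 to P75 (limma, adjusted p = 0.04) and 0.615 from P75 to 6 months (adjusted p = 1.96e-05). Gamt fell in both steps. The fall of Mat2a was lost with the same total per library (-0.102, adjusted p = 0.471) and without P18 replicate 2 or P75 replicate 2.

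Across the 12 libraries, log2 values of the 10 genes were compared by Pearson's r, as a description: the libraries share 4 ages, and P18 replicate 3 is a point of all pairs. Slc13a3 and Gatm had the highest r of the 45 pairs, 0.958. Gamt and Slc6a8 had 0.920, Rimkla and Gamt 0.915, Rimkla and Slc6a8 0.897, and Ckb and Ckmt1 0.895. Folh1 and Ckb had -0.883 and Folh1 and Gamt -0.879. Aspa had no r with another member above 0.539, the value with Rimkla. Among 11305 genes averaging 100 or more, those most like each member over the 12 libraries were Nomo1, Shisa9 and Pltp for Nat8l (r of 0.986, 0.983 and 0.981), Gabrg1, Tgoln1 and Fzd1 for Folh1 (0.988, 0.986 and 0.985) and Tmem141, 1110007C09Rik and Gss for Gamt (0.989, 0.989 and 0.987). For Gatm they were Etv1, Pip4k2a and Fads1 (0.983, 0.980 and 0.971), and for Slc13a3 Fads1, Rassf4 and Gatm (0.974, 0.967 and 0.958). For Rimkla they were Klhl5, Gna13 and Fam54b (0.968, 0.966 and 0.964), and for Slc6a8 Sh3gl3, Spop and Mpv17l (0.979, 0.975 and 0.973). For Ckb they were Gapdh, Nosip and Mrpl16 (0.982, 0.978 and 0.973), and for Ckmt1 Nsfl1c, Gtf2f1 and Paf1 (0.947, 0.940 and 0.937). The nearest genes of Aspa were less alike, with Rcbtb1, Aldh3a2 and Arhgef26 at 0.887, 0.863 and 0.850.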

How the data were processed

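RNA of purified myelin was sequenced in 12 libraries, 3 at each of 4 ages, grouped here by their titles. According to their methods, the authors used TopHat for alignment to mm9, HTSeq-count for reads per gene, and DESeq for normalization. The submitters' processing notes name TopHat2 2.0.8, SAMtools 0.1.19 and HTSeq 0.5.4p1. The TopHat version in the study's methods differs from that in the notes. The annotation and strand setting were not given in the sources used here, so reads of genes that overlap on both strands may not be told apart. The deposited signal is the normalized read count, on a linear scale and without correction for gene length. Reads were recovered by dividing each library by its smallest step (100% of values came within 0.1 of a whole number).

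Ages were compared with limma 3.58.1 (trend, empirical Bayes) in R 4.3.3. The fit used log2(normalized read count + 1) of all 12 libraries with age as the single factor, and 14634 genes averaging 10 or more. Calls were made at an adjusted p under 0.1 (Benjamini-Hochberg over all these genes), the false discovery rate of the study, in 5 comparisons. This scale understates changes of low genes. Alternatives were pseudocounts of 0.5 and 10, no filter, a minimum mean of 100, fits of the compared ages alone, a replicate block, the same total per library, quantile normalization, a false discovery rate of 0.05, edgeR 4.0.16 and DESeq2 1.42.0 on recovered reads, and each library left out. The methods were tested on simulated data with the same relative spread for every gene and no outlying library. That test therefore does not cover a library such as P18 replicate 3. An exact permutation test of 3 against 3 libraries cannot give a p below 0.1. Same-numbered libraries of P75 and 6 months deviated together from their group means, with correlations of 0.161, 0.101 and 0.187. Unlike numbers reached similar values in another comparison, with 0.225 between P18 replicate 3 and P75 replicate 2. Deviations from a mean of 3 libraries are also tied to each other. These correlations therefore cannot establish that the numbers pair the libraries, and no label says what same-numbered libraries share.

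Gene positions and exon lengths came from GENCODE vM1 on NCBIM37, matched by symbol, with a unique length for 95.5% of genes. Promoters came from RefSeq on GRCm38.p6, and no coordinates were converted. The text names the 10 genes, members of the lists, and the 3 genes with the highest Pearson's r to each of the 10. The genes and lists were chosen with earlier results of these data known.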

Additional observations from a re-analysis of the deposited data

How the results depend on the processing

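The counts of the 10 genes called between P18 and P75, and between either age and 24 months, stayed within 1.5 times the reported count in every alternative run. Their ranges were 4 to 6 (P18 to P75), 5 to 7 (P75 to 24 months) and 9 to 9 (P18 to 24 months) when each library was left out. From P75 to 24 months the count was 4 at a false discovery rate of 0.05 and without a filter. From P18 to 24 months it was 8 with the same total per library and with quantile normalization. From P75 to 6 months the count ran from 3 to 7 with a library left out, and it was 7 without P18 replicate 3. From 6 to 24 months the single call was the least stable. The count was 0 at a false discovery rate of 0.05, without a filter, with the replicate block, with the same total per library and with edgeR, where limma had 1 gene at an unadjusted p under 0.05 and DESeq2 called 1. It was 3 with only the libraries of these ages, and 0 to 3 with a library left out. The count over all genes for this step was 2856 at a false discovery rate of 0.05 and ran from 2478 to 5323 with a library left out, against 4287 with all. It was 2478, 2763, 2821 and 2492 without 6-month replicate 1, 6-month replicate 2, 24-month replicate 1 and 24-month replicate 2, fits with fewer samples in the groups compared. The log2 changes of the 10 genes kept direction and call in 513 of 550 alternatives other than leaving out a library and in 558 of 600 of the latter. In part of these the direction could not turn, so the totals overstate how well it was tested. The log2 change stays the same by construction when the library left out belongs to neither age compared. It also does so at a false discovery rate of 0.05, with another filter, with the compared ages alone and with the replicate block.

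Direction turned only for changes that had not passed. With the same total per library, the change from P18 to P75 was 0.00131 for Ckb and 0.0118 for Ckmt1, and that of Slc6a8 from 6 to 24 months was -0.0268. From P75 to 24 months Gatm had 0.00272 with quantile normalization and 0.000331 with edgeR, and 0.0668 and 0.00959 without P75 replicate 1 and 24-month replicate 1. With a library left out, Gatm ran from -0.0769 to 0.0668 in that comparison. Aspa ran from -0.0756 to 0.238 from P18 to P75, with -0.0756 and -0.0102 without P18 replicate 3 and P75 replicate 3, and from -0.145 to 0.0523 over the next step, turning without P75 replicate 3. Over that step Ckmt1 ran from -0.192 to 0.0188, turning without P75 replicate 2. From 6 to 24 months Gamt ran from -0.147 to 0.0354, turning without 6-month replicate 2, and Slc6a8 from -0.0269 to 0.0597, turning without 6-month replicate 3 (-0.0227) and 24-month replicate 1. The cause was not tested. The replicate block, in which the pairing rests on the replicate numbers, gave 6, 5, 0, 6 and 9 calls among the 10 genes, in the order P18 to P75, P75 to 6 months, 6 to 24 months, P75 to 24 months and P18 to 24 months. It added Rimkla from P18 to P75 (adjusted p = 0.0941) and Slc13a3 from P75 to 6 months, dropped Nat8l from 6 to 24 months (adjusted p = 0.107), and changed no other call of these genes. Outside the step from P75 to 6 months, the same-number correlations ran from -0.213 to 0.029. Each of these genes had at least 101 reads in every library, and the 3 libraries per age limit the precision.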
